A study of Homo sapiens with 74 samples.

Results

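The proteasome genes were taken as the protein-coding genes of hg38 whose symbols are PSMA, PSMB, PSMC, PSMD, PSME or PSMG followed only by a number, and 47 of 20046 protein-coding genes in GENCODE 44 met this rule. A gene was called for a zinc-finger protein (ZFP) when a Cut&Run peak of either replicate lay within 1000 bp of any of its annotated transcription starts. Of the 47 genes, 34 were called for at least 1 of 36 ZFPs, which is 72.3% against 55.8% of all protein-coding genes. Over all combinations of gene and ZFP, 110 of 1692 were called, or 6.50% against 5.62% of those of all protein-coding genes. The share of pairs was near the background, although it lay below it among genes with CpG-rich promoters (6.40% against 7.79%) and above it among the others (6.82% against 2.08%). Of the 27 pairs of these others, 9 belonged to PSME2, which shares its promoter region with another gene, RNF31. The genes differed widely among themselves, from PSMA5 with 11 ZFPs to 13 genes with none.

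The proteasome is the protease that degrades proteins marked with ubiquitin. Its 20S core is a barrel of PSMA (alpha) rings, which form the gate, and PSMB (beta) rings, which hold the catalytic sites. The 19S cap binds the ubiquitin chain, removes it and threads the substrate in, by means of a base with PSMC ATPases and a lid of PSMD subunits. PSME proteins are alternative activators of the core, and the PSMG proteins and several PSMD proteins are chaperones of its assembly. The genes are expressed in all cells, except for the thymic and testis forms and the interferon-inducible immunoproteasome subunits, and NFE2L1 and NFE2L2 are known to raise their transcription through the antioxidant response element.

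All libraries came from HEK293T, a human embryonic kidney cell line. Each ZFP was expressed for 48 h from a transfected plasmid as an open reading frame fused to a V5 tag, driven by the EF1-alpha promoter, so the tagged protein came from the plasmid and not from the ZFP's own locus. A V5 antibody then directed nuclease cleavage to the chromatin that the tagged protein occupied, and un-transfected cells taken through the same immunoprecipitation were the mock control. The 36 ZFPs were APEX2, BRCA1, CISD1, CNBP, CNOT4, CPSF4, CPSF4L, CTCF, G2E3, GIN1, GTF3C4, LIN28B, MAZ, MBNL1, NANOS2, PHF7, RBM5, RNF113A, RNF14, SALL4, SNRPC, TEX13A, TRIM55, U2AF1, WBP4, ZC3H3, ZFP36L1, ZMAT3, ZMAT5, ZNF2, ZNF22, ZNF317, ZNF574, ZNF593, ZNF706 and ZNF800, with 2 replicates of each. The study states that Cut&Run data of 36 ZFPs met its quality control, but the 36 used here are not the same set. For CPSF4, MBNL1, SNRPC, TRIM55, ZC3H3 and ZMAT5 the study's summary lists no Cut&Run target genes. Whether their data met that control is not stated. Without these ZFPs, 99 pairs were called for 15 ZFPs, 7.02% against 6.05% of those of all protein-coding genes. The 72 lists held 92122 peaks, from 15 to 8702 per list with a median of 631, and list length is used as the measure of yield, because all libraries had one sequencing target and the exact number of reads behind each list was unknown.

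The labels were checked through the plasmid, since the exons of a transfected open reading frame can appear as peaks on the ZFP's own gene. The origin of such peaks was not tested. For 32 of 36 ZFPs both replicates held peaks on exons of that gene. The 6 lists without one were replicate 1 of MBNL1, replicate 2 of TRIM55, and both replicates of the libraries labelled U2AF1 and ZMAT5. The libraries labelled U2AF1 and MBNL1 called no proteasome gene. TRIM55 replicate 2 and ZMAT5 replicate 2 contributed 3 peaks, at PSMC5, PSME2 and PSMD1, all with a fold near the median of 2.00 that these lists had. Without the 6 lists, 107 pairs were called for 18 ZFPs and the same number of genes, 34.

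The number of proteasome genes called differed widely between ZFPs. At least 1 proteasome gene was called for 20 ZFPs. The largest counts belonged to ZFPs with the most promoters called, and 7 ZFPs with over 2000 protein-coding genes each (APEX2, CISD1, CTCF, G2E3, GIN1, PHF7 and ZNF22) held 70.9% of the called proteasome pairs and 75.6% of those of all protein-coding genes. Within these 7 ZFPs, 78 pairs were called, 23.7% against 21.9% for all protein-coding genes.

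APEX2, a nuclease of base excision repair, had 14 proteasome genes, 29.8% of the 47 against 27.0% of all protein-coding genes. CISD1, known as an iron-sulphur protein of the outer mitochondrial membrane, had 13 genes, 27.7% against 27.6%. PHF7, a PHD-finger protein of spermatogenesis, had 13 as well, 27.7% against 23.5%. G2E3, a ubiquitin ligase, had 11 genes, 23.4% against 21.6%, with 5 in replicate 1 (10.6% against 12.0%) and 8 in replicate 2 (17.0% against 14.8%). ZNF22, a C2H2 zinc-finger protein, also had 11, below the 25.8% of all protein-coding genes, with 11 in replicate 1 and 3 in replicate 2. CTCF, the insulator protein, had 9 genes, 19.1% against 13.5%, with 10.6% in each replicate against 10.9% of all protein-coding genes in replicate 1 and 6.10% in replicate 2, and 1 gene in both. GIN1, related to retrotransposon integrases, had 7, 14.9% against 13.9%. It had 6 in replicate 1 (12.8% against 10.5%) and 2 in replicate 2 (4.26% against 5.71%). In these 7 ZFPs the ratios of the 2 percentages ran from 0.906 for ZNF22 to 1.42 for CTCF.

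The remaining ZFPs had shorter lists. ZMAT3, an RNA-binding target of p53, had 6 proteasome genes, 12.8% against 5.30% of all protein-coding genes, and the 6 were split as 4 in replicate 1 and 2 in replicate 2 with none in both. CPSF4, a polyadenylation factor, had 4 genes (8.51% against 8.11%), of which 1 was left when each peak was given to the nearest start and 2 without replicate 2. TEX13A, a testis-expressed protein, had 4 genes (8.51% against 7.15%), 2 in each replicate and none in both. Each replicate thus called 4.26%, against 5.88% of all protein-coding genes in replicate 1 and 1.72% in replicate 2. RNF113A, a spliceosome-associated ubiquitin ligase, had 4 (8.51% against 4.68%), and ZC3H3, a factor in mRNA export, had 3 (6.38% against 4.14%). All genes of these last ZFPs came from replicate 1, and replicate 2 of ZC3H3 held 15 peaks. The ZFPs with 2 genes called 4.26% of the 47. Of them, TRIM55, a muscle RING-finger protein, called 2.39% of all protein-coding genes, ZNF593 2.61%, and LIN28B, the let-7 regulator, 0.748%. Both TRIM55 genes came from replicate 2 and both LIN28B genes from replicate 1. ZNF593 had 1 gene in each replicate, 2.13% against 0.658% in replicate 1 and 2.31% in replicate 2. A single gene was called for 5 ZFPs, which is 2.13% of the 47: SNRPC, a U1 snRNP protein, against 4.72%, WBP4 against 1.21%, ZMAT5, a minor spliceosome protein, against 1.18%, ZFP36L1, an mRNA decay factor, against 0.175%, and RBM5, a splicing regulator, against 0.0998%. Where a background lies under 2.13%, 1 gene is enough to exceed it, so these ratios carry little information. The other 16 ZFPs called none of the 47, at a pooled background of 0.436% (17 to 262 protein-coding genes each), where a background share would have given 3.28 pairs in total. Across all 36 ZFPs, 18 called a higher share of proteasome genes than of all protein-coding genes and 18 a lower one. The 16 ZFPs without a call all count as lower. Among the 20 with a call, 18 were higher and 2, ZNF22 and SNRPC, were lower. The split thus depends on list length and is no measure of balance.

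**Figure D1:**
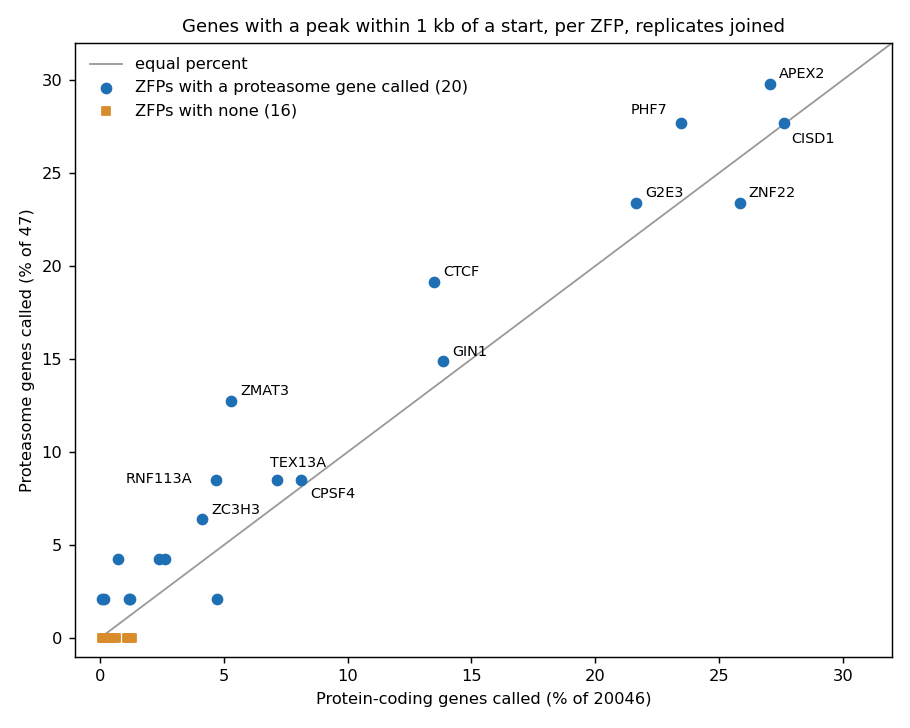
Percent of the 47 proteasome genes called (vertical axis) against percent of all 20046 protein-coding genes called (horizontal axis), 1 point per ZFP with both replicates joined; the grey line marks equal percentages and ZFPs with at least 3 proteasome genes are named. The points follow the line from 16 ZFPs at 0 to APEX2 at 29.8%, with ZMAT3 and CTCF above it and ZNF22 and SNRPC below.

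Replicates agreed on a minority of calls, as they did elsewhere. A proteasome gene was called in both replicates of a ZFP in 18 pairs, 1.06% of all pairs against 0.930% for protein-coding genes, and these were 16.4% of the called proteasome pairs against 16.5% of the called pairs of all protein-coding genes. Replicate 1 lists alone called 84 pairs (4.96% against 4.46%) and replicate 2 lists alone 44 (2.60% against 2.10%). The count differed most for PHF7, with 13 genes in replicate 1 and 1 in replicate 2, and for CISD1, with 13 and 3. All protein-coding genes differed in the same way, with 22.9% and 1.71% called for PHF7 and 25.4% and 7.05% for CISD1. APEX2 was balanced, with 10 genes in each replicate (21.3%, against 18.9% and 16.4% of all protein-coding genes) and 6 in both. These 6 were 42.9% of its called proteasome genes, against 30.8% of its called protein-coding genes. For 9 of the 20 ZFPs, all proteasome calls came from a single replicate. Of the 18 pairs seen in both replicates, 10 had peaks that overlapped between the replicates (55.6% against 78.9% of 6711 such pairs of all protein-coding genes), and in the others the replicates marked different positions near the same gene. As a share of all pairs, overlapping peaks in both replicates were thus found for 0.591% of the proteasome pairs against 0.734% of those of all protein-coding genes, the reverse of the direction for calls in both replicates.

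**Figure D2:**
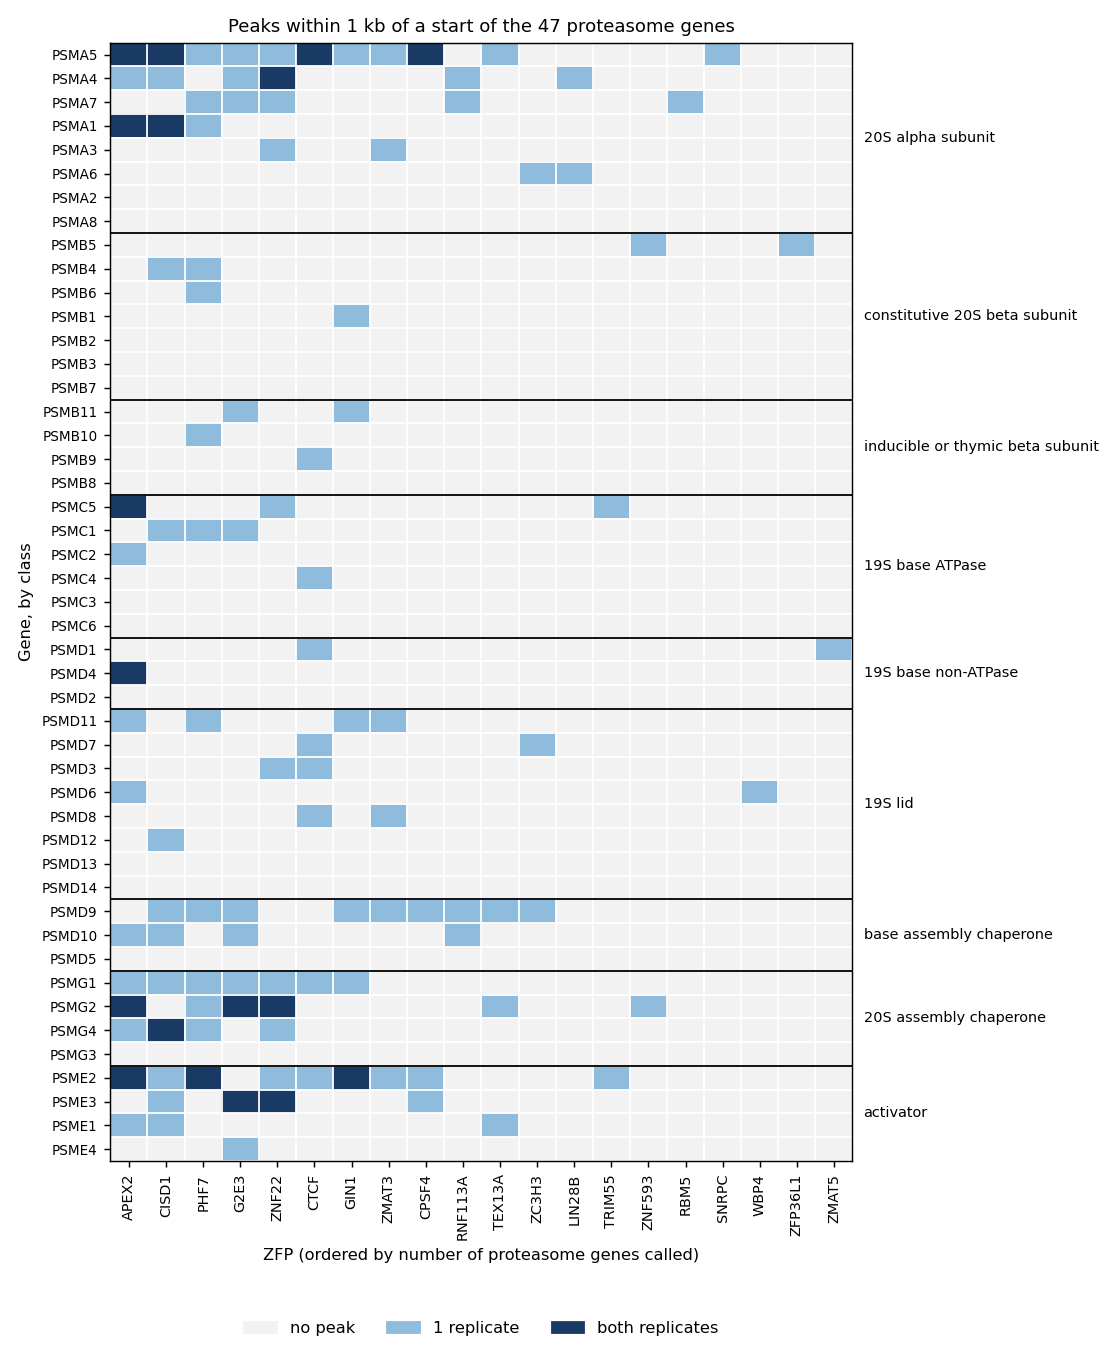
The 47 proteasome genes by class (rows) and the 20 ZFPs with at least 1 of them called (columns); pale blue squares mark a peak within 1 kb of a start in 1 replicate, dark blue squares in both. Dark squares lie at 9 genes and in 8 ZFPs, the rows of PSMA5, PSME2, PSMD9 and PSMG1 are the fullest, and 13 rows are empty.

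PSMA5, an alpha subunit of the 20S core, was called for more ZFPs than any of the other 46 genes, with 11 ZFPs in 15 lists. Among all protein-coding genes, 285 (1.42%) were called for at least as many. Its fold over the mock IP was 3.91 in the lowest list (TEX13A replicate 1), 6.21 at the median and 9.56 in the highest (CPSF4 replicate 1). All 15 peaks merged into 1 region of 889 bp on hg38, chr1:109425905-109426793, over the start of PSMA5 (minus strand, canonical transcript from 109399042 to 109426448), and the nearest start of another protein-coding gene was 28530 bp away. CTCF had a fold of 6.42 in replicate 1 and 8.53 in replicate 2, with summits 35 bp apart. CISD1 had 5.67 and 5.30, with summits 115 bp apart. In both ZFPs the peaks of the 2 replicates overlapped. APEX2 had 6.06 and 4.87, with overlapping peaks, and CPSF4 had 9.56 and 5.48 in peaks that did not overlap. G2E3 (6.21), GIN1 (7.24), PHF7 (6.66), SNRPC (4.75), ZMAT3 (6.67) and ZNF22 (7.93) called PSMA5 in 1 replicate.

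The sequences at the PSMA5 peaks are shown because this was the site most ZFPs shared. Windows reaching 100 bp to each side of a summit were read from hg38 on the strand of the gene and shortened to their longest stretch outside annotated UTRs. The first window, chr1:109426449-109426590 on the minus strand, lies just upstream of the canonical start around the CTCF replicate 2 summit and contains the corresponding stretch of the CPSF4 replicate 1 peak. The second, chr1:109426144-109426330, lies around the CISD1 replicate 1 summit, which is in an intron, and begins in the coding exon before it, where the GIN1 replicate 1 summit lay. Capitals mark matches to words searched in the promoters, namely CCAAT (bound by NF-Y), GGGCGG (the GC box) and TGACNNNGC (the core of the antioxidant response element, here on the other strand).
PSMA5 upstream of the start: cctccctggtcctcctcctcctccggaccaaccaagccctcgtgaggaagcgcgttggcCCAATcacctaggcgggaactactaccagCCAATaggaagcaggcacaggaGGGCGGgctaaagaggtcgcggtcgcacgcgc
PSMA5 coding exon and intron: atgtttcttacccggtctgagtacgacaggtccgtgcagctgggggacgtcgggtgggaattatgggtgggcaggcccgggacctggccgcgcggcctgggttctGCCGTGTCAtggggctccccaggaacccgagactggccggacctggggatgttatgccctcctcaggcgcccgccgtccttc
The upstream stretch held CCAAT at 2 positions and GGGCGG at 1, and the downstream stretch held 1 match to TGACNNNGC. Such words are common in promoters, as their shares given further on show, and a match here is a description of the sequence.

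PSME2, the beta chain of the interferon-inducible activator PA28, was called for 9 ZFPs in 12 lists. Among all protein-coding genes, 749 (3.74%) were called for as many. Its folds ran from 2.00 (TRIM55 replicate 2) through a median of 5.50 to 8.44 (ZNF22 replicate 1). PHF7 had 7.17 and 6.23 in its 2 replicates, with summits 51 bp apart. GIN1 had 7.103 and 5.28 in overlapping peaks, and APEX2 had 4.45 and 4.91 at separate positions. PSME2 shares its promoter region with RNF31, a subunit of the linear ubiquitin chain ligase, whose start is 73 bp from the canonical PSME2 start, so the peaks cannot be given to either gene. In 8 of the 9 ZFPs, the peaks formed 1 region of 1029 bp, chr14:24146421-24147449. Most of that region is annotated as UTR of one transcript or another, so that of the window around the ZNF22 summit only chr14:24147236-24147266 (minus strand) is shown, and none of the window of PHF7. The stretch is called upstream with respect to the canonical start, and another annotated PSME2 start lies inside it.
PSME2 upstream stretch: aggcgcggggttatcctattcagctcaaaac
No word that was searched matched this short stretch.

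PSMD9, a chaperone of the 19S base, was called for 9 ZFPs as well, but in 9 lists, so no ZFP had it in both replicates. The folds were 4.002 for GIN1, 4.07 for CISD1, 4.95 for CPSF4, 5.17 for ZC3H3, 6.03 for PHF7, 6.08 for TEX13A and 6.34 for RNF113A, all in replicate 1, with 6.09 for ZMAT3 and 9.52 for G2E3 in replicate 2. The 9 peaks nevertheless lay within 440 bp of each other, chr12:121888737-121889176, and their summits within 245 bp. The stretch around the G2E3 summit, chr12:121888857-121889037 on the plus strand, begins in a coding exon of PSMD9, runs on into the intron and is shown as the strongest PSMD9 peak; the site was the narrowest shared one of the first 5 genes. The start of a second protein-coding gene model, without a gene name, lay 19 bp from the canonical PSMD9 start.
PSMD9 coding exon and intron: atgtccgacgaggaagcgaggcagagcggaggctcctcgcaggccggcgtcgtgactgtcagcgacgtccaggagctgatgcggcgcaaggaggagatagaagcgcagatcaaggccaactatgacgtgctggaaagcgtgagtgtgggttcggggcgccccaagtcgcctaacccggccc
None of the 8 words matched this stretch, which leaves out the upstream part and the UTR. The promoter window of PSMD9, described with the other promoters further on, held TGACNNNGC at 2 positions, GGGCGG at 3, CCGGAAG at 1 and CACGTG at 1.

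The chaperones of 20S assembly followed. PSMG1, which pairs with PSMG2 to guide the alpha ring, was called for 7 ZFPs, each in 1 replicate, with folds from 4.25 (G2E3) through a median of 5.09 to 6.29 (GIN1). These 7 were the same ZFPs that had over 2000 protein-coding genes called, so PSMG1 was called for each ZFP with many promoters and for no other. The stretch inside the GIN1 window, chr21:39183292-39183385 on the minus strand, held 1 GGGCGG match.
PSMG1 coding exon: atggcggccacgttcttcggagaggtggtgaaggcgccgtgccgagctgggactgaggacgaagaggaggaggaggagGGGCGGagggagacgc
PSMG2 was called for 6 ZFPs in 9 lists, with folds from 3.61 to 6.14. Its peaks fell at separate starts. A group of 7 peaks from 5 ZFPs lay at chr18:12657742-12658594, about 45 kb upstream of the canonical start (the ZNF22 replicate 1 summit was 44798 bp away), where an alternative PSMG2 transcript begins beside the start of SPIRE1, an actin nucleator. The other 4 peaks lay at the canonical start, chr18:12702512-12703101, next to CEP76, a centrosomal protein whose start is 265 bp away. ZNF22 had folds of 6.14 in replicate 1 and 5.81 in replicate 2 at the alternative start, with summits 24 bp apart, whereas G2E3 had 3.61 at the alternative start in replicate 1 and 4.89 at the canonical start in replicate 2. The window around the ZNF22 replicate 1 summit, chr18:12658144-12658344 on the plus strand, is shown as the strongest PSMG2 peak, and it lies at the alternative start.
PSMG2 alternative start: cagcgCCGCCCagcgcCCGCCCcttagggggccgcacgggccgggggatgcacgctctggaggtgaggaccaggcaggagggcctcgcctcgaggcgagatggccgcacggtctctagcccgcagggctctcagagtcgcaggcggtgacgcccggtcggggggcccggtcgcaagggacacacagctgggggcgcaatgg
GGGCGG matched at 2 positions on the other strand. PSMG4, another assembly chaperone, was called for 4 ZFPs with folds from 4.18 to 5.30, and CISD1 had it in both replicates (4.77 and 4.28) without overlap. The highest fold, from PHF7 replicate 1, lay at an alternative start near that of TUBB2B, 27012 bp upstream of the canonical PSMG4 start.

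Among the other alpha subunits, PSMA4 was called for 6 ZFPs in 7 lists within 620 bp around its start. ZNF22 had 3.95 and 8.75 in overlapping peaks, so that its replicates lay near the lowest and the highest folds at this gene. RNF113A (9.40), CISD1 (5.47), LIN28B (5.07), APEX2 (4.31) and G2E3 (4.15) had it in replicate 1. PSMA1 was called for 3 ZFPs, and all 5 peaks lay at an alternative start, 123070 bp or more upstream of the canonical one and beside PDE3B, a phosphodiesterase gene. APEX2 (4.37 and 5.73) and CISD1 (5.03 and 4.64) had PSMA1 in both replicates, in neither case with overlapping peaks. With 1 canonical start per gene, PSMA1 would therefore not be a called gene.

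PSMA7, also an alpha subunit, carried the strongest peaks of the set. RNF113A replicate 1 had a fold of 25.5 and RBM5 replicate 1 a fold of 12.5, and these were the only 2 of 134 peaks over 10. Within its own list, the RNF113A fold was at percentile 97.8 of the promoter peaks. That of RBM5 was at percentile 36.7 and so not high among the promoter peaks of its list, although the median fold of that list was 3.38. They did not lie at the main promoter. Both covered 170 bp in all, chr20:62138989-62139158, with summits 6 bp apart, 4317 bp (RNF113A) and 4323 bp (RBM5) downstream of the canonical start, and were counted because a shorter transcript starts within 1 kb. The RNF113A summit lay in an exon of 123 bp, chr20:62139075-62139197. Neither ZFP had a peak there in replicate 2. G2E3 (6.24 and 4.16, as 2 peaks of replicate 2), ZNF22 (5.48) and PHF7 (4.46) had their PSMA7 peaks around the canonical start, which is 375 bp from that of SS18L1, a chromatin remodelling subunit.

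**Figure D3:**
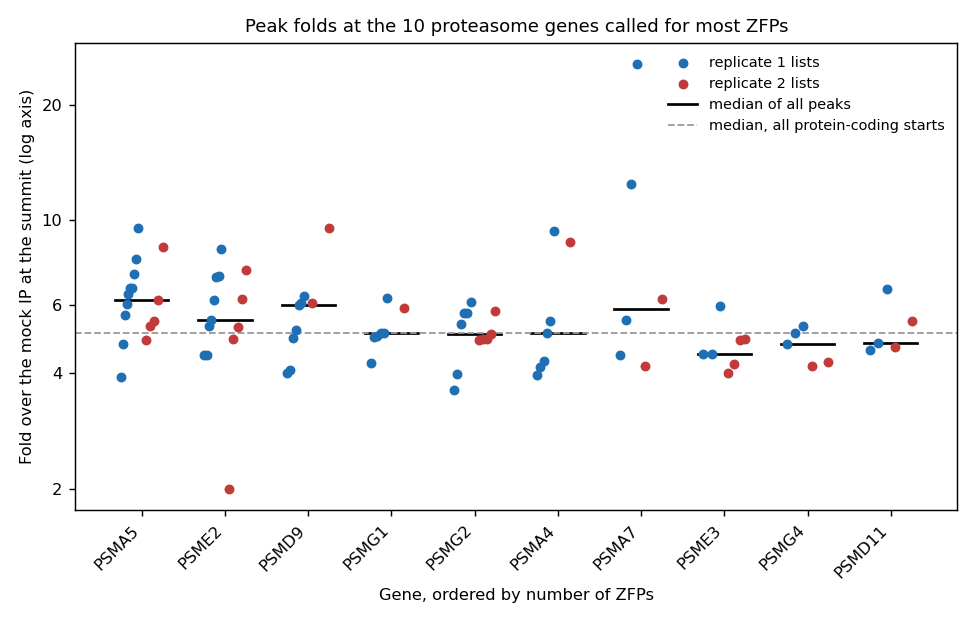
Fold over the mock IP at the summit (log axis) of every peak at the 10 proteasome genes called for most ZFPs, replicate 1 lists in blue and replicate 2 lists in red; black bars are the median per gene and the dashed line is the median of peaks at all protein-coding starts, 5.08. The replicates overlap at most genes, the bars lie close to the dashed line, and the RNF113A and RBM5 peaks of PSMA7 (25.5 and 12.5) stand apart.

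The classes of proteasome gene are described by their share of pairs called, without a test between them. The alpha subunits had 10.1% of their pairs called (6 of 8 genes called), the activators 11.8% (4 of 4), the 20S chaperones 11.8% (3 of 4) and the base chaperones 12.0% (2 of 3). The constitutive beta subunits, which include the catalytic PSMB5, PSMB6 and PSMB7, had 2.38% (4 of 7), and the inducible or thymic beta subunits 2.78% (3 of 4). The ATPases of the base had 3.70% (4 of 6), its other subunits 2.78% (2 of 3) and the lid 4.51% (6 of 8). All of these values stand against 5.62% for protein-coding genes, and with 3 to 8 genes per class, 1 gene can set much of a class's value: PSMD9 gave 9 of the 13 pairs of the base chaperones and PSMA5 gave 11 of the 29 pairs of the alpha subunits. No beta subunit, no lid subunit and no base chaperone was called in both replicates of any ZFP. For all protein-coding genes, 0.930% of pairs were called in both replicates. At that share, classes of this size would hold only a few such pairs.

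**Figure D4:**
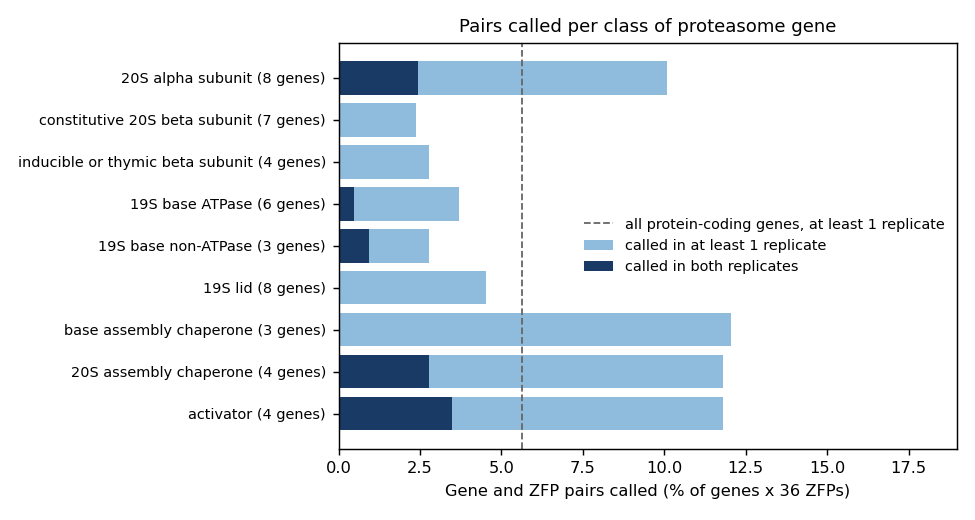
Percent of gene and ZFP pairs called for each class of proteasome gene (horizontal bars starting at 0), with the part called in both replicates in dark blue; the dashed line is the 5.62% of all protein-coding genes. The alpha subunits, chaperones and activators lie to the right of the line, from 10.1% to 12.0%, and the beta, base and lid subunits to its left, from 2.38% to 4.51%.

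Other subunits were called in both replicates of a ZFP or for 4 ZFPs. PSMC5, an ATPase of the base, had folds of 4.58 and 4.83 in the APEX2 replicates, with summits 33 bp apart. PSMD4, a ubiquitin receptor of the cap, was called for APEX2 alone, with 4.31 in replicate 1 and 9.07 in replicate 2 and summits 29 bp apart. Both sites were thus placed alike by the 2 APEX2 libraries, although the PSMD4 height differed. PSME3, the nuclear activator PA28-gamma, was called in both replicates of ZNF22 (4.49 and 4.91, 530 bp apart) and of G2E3 (4.48 at the canonical start in replicate 1, with 4.004 at an overlapping peak and 4.21 at a start 9041 bp upstream in replicate 2). PSMD11, a lid subunit, was called for 4 ZFPs with folds from 4.59 to 6.63, and PSMD10, the base chaperone also known as gankyrin, for 4 with folds from 3.71 to 5.098. The PSMD10 peaks of APEX2, G2E3 and RNF113A lay nearer to the start of ATG4A, an autophagy protease gene 126 bp away, than to that of PSMD10.

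Of the 34 called genes, 11 were called for at least 4 ZFPs, 14 for 2 or 3 and 9 for 1, and 8 rested on a single list. The 13 genes called for none were PSMA2, PSMA8, PSMB2, PSMB3, PSMB7, PSMB8, PSMC3, PSMC6, PSMD2, PSMD5, PSMD13, PSMD14 and PSMG3. They include PSMB7, which carries the trypsin-like activity, PSMB8, the immunoproteasome counterpart of PSMB5, PSMD14, the deubiquitinase of the lid, PSMD2, a scaffold of the base, and PSMA8, the testis form. Their nearest peaks lay from 1140 bp (PSMD13, CISD1 replicate 1) through 1836 bp (PSMB3, CISD1 replicate 1) and 1924 bp (PSMG3, APEX2 replicate 1) to 42474 bp (PSMA8, ZNF22 replicate 1). At the limit of 1000 bp, the farthest gene inside was PSMB1 at 915 bp and the nearest gene outside was PSMD13 at 1140 bp.

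The peaks themselves resembled promoter peaks at large. The 134 peaks at proteasome genes had a median fold of 5.09, with quartiles of 4.48 and 5.97, against 5.08, 4.47 and 5.90 for 43019 peaks at all protein-coding starts. Their median −log10 q was 2.97 against 2.99 and their median width 256.5 bp against 277 bp. A start lay under 85 of the 134 peaks, 63.4% against 53.1% of all promoter peaks, and the proteasome genes had more annotated starts per gene, a median of 8 against 5. The summits lay a median of 84.5 bp from the nearest start of the gene, 65 upstream and 69 downstream. Of the summits, 29 lay in UTRs, 23 in coding exons, 22 in exons of other transcripts, 28 in introns and 32 outside the gene.

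**Figure D5:**
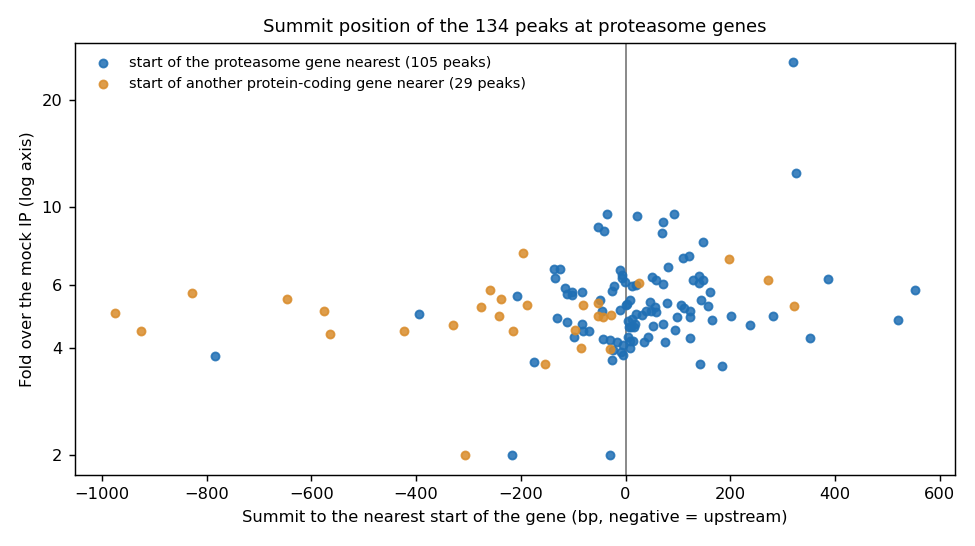
Fold over the mock IP (log axis) of the 134 peaks against the distance in bp from the summit to the nearest start of the proteasome gene, negative upstream; orange points are the 29 peaks for which the start of another protein-coding gene was nearer. Of the summits, 112 lay within 250 bp, the distant upstream ones are mostly orange, and the highest points are the RNF113A and RBM5 peaks of PSMA7.

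Starts of other genes lay close to many of these peaks. Of the 134 peaks, 62 (46.3%) also lay within 1 kb of the start of another protein-coding gene, against 18.0% of the 43019 peaks at all protein-coding starts. The 2 shares were not drawn alike. A peak near starts of 2 genes had more ways to enter the proteasome set, whereas each background peak counted once. The 62 peaks involved 14 of the proteasome genes, with 13 at PSME2, 11 at PSMG2, 9 at PSMD9 and 7 at PSME3. For 29 peaks the other start was nearer. With each peak given only to the gene with the nearest start, 29 genes and 90 pairs remained called, 5.32% against 4.84% for all protein-coding genes.

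The base composition of the promoters was read from 250 bp before to 50 bp after each canonical start. A promoter was called CpG-rich with at least 55% G and C and an observed over expected CpG of at least 0.6, which held for 36 of 47 proteasome genes (76.6%) and for 62.0% of all protein-coding genes. Among all protein-coding genes, CpG-rich promoters made up 82.2% of those called and 36.5% of those not called. The proteasome genes ran the other way, with 67.6% of the called genes and 13 of the 13 not called being CpG-rich, counts that were not tested. Within CpG-rich promoters alone, 6.40% of proteasome pairs were called against 7.79% of all pairs, so the ratio moved from 1.16 to 0.822 and changed direction. The 11 proteasome genes outside this class were all called, with 27 of 396 pairs (6.82%) against 2.08% of pairs of the protein-coding genes outside it. Of these 27 pairs, 9 belonged to PSME2, whose peaks cannot be given to either PSME2 or RNF31. PSMB1, PSMB10 and PSMC2 each rested on 1 peak that lay nearer to the start of another gene. The set thus lay below other genes in the larger class and above them in the smaller one, and with both classes weighted as they occur among the 47 genes these opposite differences averaged to 6.46% for the background against the observed 6.50%. Genes outside the class were not all poor in CpG. PSMB1, PSMB4, PSMB5, PSMB6, PSMC1 and PSMC5 had an observed over expected CpG of at least 0.693. They missed only the limit on G and C. PSME2, with 68% G and C, missed only the CpG limit. The class was read at the canonical start, whereas calls used any start.

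The same windows were searched on both strands for 8 words. TGACNNNGC, through which NFE2L1 and NFE2L2 act, was found in 14 of 47 proteasome promoters, 29.8% against 14.0% of all protein-coding promoters. CCGGAAG, an ETS word, was in 17 (36.2% against 14.1%), and AAGATGGCG, a YY1 word, in 4 (8.51% against 2.83%). GGGCGG was in 32, which is 68.1% against 61.3% of all protein-coding promoters and against 83.1% of the CpG-rich ones, so its direction depended on the background. The other words were closer to the background: CCAAT was in 20 (42.6% against 36.1%), CACGTG in 3 (6.38% against 8.76%), GCGCATGCG in 1 (2.13% against 2.69%) and TGACGTCA in none (against 2.69%). Matches of GGGCGG overlapped CCGGAAG 3 times and TGACNNNGC 2 times. Between the 11 genes called for at least 4 ZFPs and the 13 called for none, the words had no common direction: TGACNNNGC was in 4 and 2 of them, CCGGAAG in 2 and 6, GGGCGG in 9 and 11, and CCAAT in 4 and 5.

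The gene families of protein synthesis gave similar shares and are set beside the proteasome genes without a test. Of 87 ribosomal protein genes 65.5% were called, with 6.64% of pairs, of 78 mitochondrial ribosomal protein genes 74.4%, with 7.12%, and of 56 translation initiation factor genes 73.2%, with 7.59%. The proteasome genes, at 72.3% and 6.50%, lay within or just under this range.

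A list of 30 other genes of the pathway, holding ubiquitin, activating enzymes, shuttle factors and regulators of proteasome genes, had 24 genes (80%) and 117 pairs called, 10.8% of pairs, against 55.8% of genes and 5.62% of pairs for all protein-coding genes. Both replicates held 28 of these pairs, over 9 genes, and NFE2L2 alone gave 20 of the 117 pairs and 15 of the 28. The transcription factor NFE2L2 stood first with 20 ZFPs in 35 lists and both replicates in 15 ZFPs. At least as many ZFPs were found for 23 protein-coding genes (0.115%), NFE2L2 included. Its folds ran from 2.00 (ZMAT5 replicate 2) through a median of 8.82 to 17.2 (CISD1 replicate 1), and 34 of its 35 peaks overlapped 1 position, with folds of 4.51 or more. APEX2 had 12.7 and 13.3 there, ZNF593 12.8 and 15.4 and CTCF 11.0 and 9.77. NGLY1, which deglycosylates NFE2L1, was called for 9 ZFPs with folds from 3.95 to 7.94. ADRM1, a ubiquitin receptor of the 19S cap, was called for 8 ZFPs in 11 lists, as many ZFPs as UBE3C (10 lists) and UCHL5 (9 lists), with 10.2 and 8.77 in the CTCF replicates. VCP, the unfoldase upstream of the proteasome, was chosen for mention after its values were seen: RNF113A replicate 1 had a fold of 24.8 and RBM5 replicate 1 a fold of 10.3 at overlapping peaks inside the gene, chr9:35061932-35062083 and chr9:35061942-35062075, the same 2 libraries that had the peaks inside PSMA7. Among the genes of this list called for no ZFP were PSMF1, an inhibitor of the core, and UBB, a polyubiquitin gene.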

How the data were processed

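Cut&Run peak lists of 36 ZFPs with 2 replicates each were used, grouped from their labels. The authors trimmed reads with Trimmomatic 0.36, aligned them to hg38 with bowtie2 2.3.5.1, removed duplicates with Picard and called narrow peaks per library with MACS2 2.2.7.1 against a V5 mock IP from the same experimental batch, at an FDR of 0.05. The deposited lists give, per peak, the authors' fold (a ratio over the mock IP at the summit), −log10 p, −log10 q and a score derived from −log10 q. The mock IP samples had no peak list of their own, and which libraries formed a batch was unknown. No value needs read counts, and no interval was computed, since the genes of a list are fixed and not sampled.

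Distances from the nearest peak edge to every start of each protein-coding transcript were computed with Python 3.11.15, numpy 2.4.6 and pandas 2.3.3, on GENCODE 44, whose hg38 contigs were long enough for all 92 contigs with peaks. The overlap step was tested on simulated data against bedtools 2.31.1. Sequence was read with pysam 0.24.0. Plots were drawn with matplotlib 3.10.9. No significance test was run: shares are descriptions, set beside those of all protein-coding genes. The proteasome genes, classes, words and other lists were chosen with earlier results of these data known. PSMC3IP and PSME3IP1, whose symbols continue after the number, were left out. The genes named are the 10 called for most ZFPs, all called in both replicates of a ZFP, the 5 strongest in both replicates, all called for none, and the 3 other pathway genes called for most ZFPs, with ties broken by the number of lists; other single genes were added after their values were seen. Sequences were shown for the strongest peaks of the first 5 genes and for the peaks strongest in both replicates. The alternatives were other distance limits, 1 start per gene, stricter q, single replicates, other ZFP sets, gene sets and backgrounds. Assignment to the nearest start, comparison outside the CpG-rich class, leaving out the lists without a peak on the gene of their own ZFP, and leaving out each list in turn were added after seeing the data.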

Additional observations from a re-analysis of the deposited data

How the results depend on the processing

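No paired analysis was possible because the results come from no test. The ratio of the percent of pairs called for proteasome genes to that for all protein-coding genes, 1.16, stayed above 1 under 14 of 17 settings and ranged from 1.13 to 1.18 when each of the 72 lists was left out in turn, with 98 (without PHF7 replicate 1) to 110 pairs called. It fell below 1 with −log10 q of at least 5 (0.911), with only PSMA, PSMB, PSMC and PSMD genes (0.963) and among CpG-rich promoters (0.822). The cause was not tested, and the 11 genes outside the CpG-rich class had 6.82% of pairs called against 2.08%, with 9 of their 27 pairs at PSME2. Of the single replicates, the ratio was 1.24 without replicate 1 and 1.11 without replicate 2.

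With −log10 q of at least 3, 57 pairs were called for 13 ZFPs, 6 of them in both replicates, 8 ZFPs were above the background share and the median fold was 6.03. With −log10 q of at least 5, 18 pairs were called at 8 genes for 10 ZFPs, 0 of them in both replicates, 6 ZFPs were above the background share and the median fold was 8.19. Both settings keep only stronger peaks. Counting only genes called in both replicates left 18 pairs at 9 genes for 8 ZFPs, with 5 ZFPs above the background share and a median fold of 4.91. Without a replicate, the counts were 14 to 17 ZFPs, 22 to 30 genes, 44 to 84 pairs and 10 to 11 ZFPs above the background share, with a median fold of 5.01 to 5.11. With only PSMA, PSMB, PSMC and PSMD genes, 9 pairs were called in both replicates, 10 ZFPs were above the background share and the median fold was 5.23. Among CpG-rich promoters, 9 ZFPs were above that share. Under the other settings every one of these counts stayed within 1.5 times its value and the median fold moved by less than 0.0725. That limit is the SD of 2 values, the median fold over all replicate 1 lists and that over all replicate 2 lists. It does not measure the spread between the replicates of a ZFP. List length limits all counts per ZFP, and a gene missing from a short list was not shown to be unbound. It also limits the count of ZFPs above the background share, where every ZFP without a call counts as below.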
